A study of Mus musculus with 2 samples.

Results

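The immunoglobulin genes of mouse were followed in total RNA of spleen neutrophils. Members were the genes with a transcript of biotype IG_C, IG_V, IG_J, IG_D or IG_LV, and the gene symbol assigned them to the heavy (Igh), kappa (Igk) or lambda (Igl) locus. The annotation held 268 such genes among 55536 Ensembl genes, namely 13 constant, 218 variable, 14 joining, 19 diversity and 4 LV genes. By locus, 144 were heavy, 106 kappa and 12 lambda, and 6 carried other symbols. The cells were primary neutrophils of adult virgin male B6CASTF1/J mice, 65 days old, which are F1 hybrids with C57BL/6 as the maternal and CAST/EiJ as the paternal strain. The single group held 2 libraries, replicate 1 and replicate 2. Each was prepared from 300 ng of RNA, and ERCC spike-ins were added. The donor identifier is the same for both, so separate animals are not documented, and a difference between the libraries may be technical. With 1 library on each side, the p-values below cover counting error only, treat reads as independent molecules and estimate no spread between samples. No condition was compared, and every test below sets replicate 1 against replicate 2 and therefore compares these libraries only.

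An immunoglobulin is made of paired heavy and light chains. Each chain gene is assembled in developing B cells by joining 1 variable, for heavy chains 1 diversity, and 1 joining segment, and is then spliced to a constant gene. The heavy constant gene sets the isotype, and the choice of its last exons decides whether the chain is anchored in the membrane or secreted. B cells and plasma cells are the known source of these transcripts, and neutrophils are known to bind antibody through Fc receptors.

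Replicate 1 held 18387963 expected counts and replicate 2 held 18090108. The neutrophil markers S100a8 and S100a9, which form calprotectin, stood at 8892 and 13196 TPM in replicate 1 and at 22882 and 27792 TPM in replicate 2. All 10 neutrophil markers were higher in replicate 2 by the comparison described below, with a median log2 ratio of -0.42. Of all genes tested, 17.0% were higher in replicate 2 and 15.0% in replicate 1. At the high counts of these markers a small ratio can pass, and Csf3r was called at a log2 ratio of -0.035. The 7SL RNA took 43.8% of TPM in replicate 1 and 31.6% in replicate 2, which lowers the TPM of all other genes more in replicate 1. The ratios of counts used for the tests were scaled separately.

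Immunoglobulin genes took 0.0280% of expected counts in replicate 1 (5141 counts) and 0.0509% in replicate 2 (9212 counts), a mean of 0.0394% ± 0.0162 (SD, n = 2). Constant genes held most of them, with 84.8% of the immunoglobulin counts in replicate 1 and 87.3% in replicate 2. Heavy-chain genes held 75.4% and 70.7%, kappa genes 21.6% and 23.4%, and lambda genes 2.94% and 5.96% in replicates 1 and 2. The lambda share was the one that moved most in proportion. Of the 268 genes, 111 had at least 1 count in both libraries, 25 in replicate 1 alone, 37 in replicate 2 alone and 95 in neither. The same split over all genes was not made. Here and for the variable genes below, it therefore cannot be told from the general loss of low-count genes. Another 164 genes are annotated as immunoglobulin pseudogenes and were not counted as members. They held 119 and 211 counts, which is 2.26% and 2.24% of the counts on immunoglobulin genes and pseudogenes together.

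The heavy-chain constant genes lie within a cluster on chr12 (mm10). Igha, the constant gene of IgA (chr12:113254830-113260236), had 1660 counts and 76.0 TPM in replicate 1 and 2543 counts and 137 TPM in replicate 2. Ighm, the constant gene of IgM (chr12:113418558-113422730), had 1638 counts and 51.1 TPM in replicate 1 and 3012 counts and 109 TPM in replicate 2. Per length, Igha was the leading heavy isotype in both libraries and Ighm the next. Igha took 54.6% of the heavy constant TPM in replicate 1 and 50.2% in replicate 2 (52.4% ± 3.16, SD, n = 2), against 36.8% and 40.1% for Ighm. By counts, which are not scaled by length, the order is not stable. Igha took 46.6% of heavy constant counts in replicate 1 and 42.0% in replicate 2, against 46.0% and 49.7% for Ighm.

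The IgG genes stood lower, and the 4 together took 8.13% of heavy constant TPM in replicate 1 and 9.35% in replicate 2. Ighg2b had 4.61 and 10.7 TPM, on 102 and 202 counts in replicates 1 and 2, and led the IgG genes in both. Ighg1 had 2.58 and 6.12 TPM, on 55 and 111 counts. Both were higher in replicate 2. Ighg2c, the IgG2 gene that C57BL/6 mice carry in place of Ighg2a, had 1.50 and 5.45 TPM, on 33 and 102 counts. Ighg3 had 2.61 and 3.18 TPM, on 56 and 58 counts. The order of Ighg1, Ighg2c and Ighg3 differed between the libraries, so these 3 cannot be ranked against each other. The reference was mm10, and how reads of the paternal CAST/EiJ alleles of the constant genes were assigned was not tested.

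Ighd, the constant gene of IgD, which naive B cells co-express with IgM, had 18 counts and 0.61 TPM in replicate 1 and 28 counts and 1.04 TPM in replicate 2. The Ighm level was 83.8 times the Ighd level per length in replicate 1 and 105 times in replicate 2. Ighe, the constant gene of IgE, had 0 counts in both libraries, which allows up to 3 counts, or 0.105 TPM in replicate 1 and 0.123 TPM in replicate 2.

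**Figure D1:**
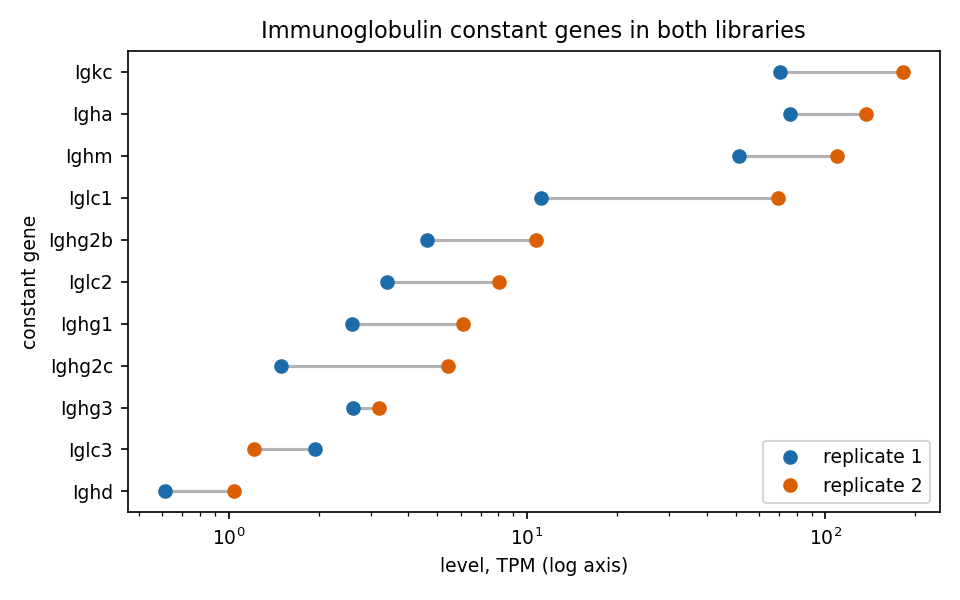
TPM of the 11 immunoglobulin constant genes with counts, on a log axis, with 1 point for each library and a line joining them. Replicate 2 lies right of replicate 1 for every gene drawn except Iglc3, and Iglc1 shows the widest gap, with 11.1 TPM in replicate 1 and 69.5 TPM in replicate 2. Ighe and Iglc4 had 0 counts and are not drawn.

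Between the libraries, 8 of the 11 constant genes tested were higher in replicate 2 and none higher in replicate 1, with an adjusted p under 0.05 by an exact two-sided binomial test on counts, Benjamini-Hochberg adjusted over 15118 genes. Of all genes tested, 17.0% were higher in replicate 2 and 15.0% in replicate 1 by this test. The log2 ratio of replicate 1 over replicate 2 was -0.60 for Igha, -0.86 for Ighm, -0.97 for Ighg2b, -0.99 for Ighg1 and -1.60 for Ighg2c. Ighg3 had a ratio of -0.03 (exact binomial test, adjusted p = 0.976) and Ighd one of -0.61 (exact binomial test, adjusted p = 0.332), and neither passed the threshold. The median over the 11 constant genes was -0.97, against -0.00 over all genes tested.

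The heavy-chain transcripts end in exons for either the secreted or the membrane form, and the annotation gives both ends as separate transcripts. The coding ends are shown for Ighm and Igha because the isoform values turn on them. Lower case marks the last 24 coding bases that both forms share, and capitals mark the coding bases that only that form has, without the stop codon (GENCODE M21, minus strand).
Ighm-201 secreted: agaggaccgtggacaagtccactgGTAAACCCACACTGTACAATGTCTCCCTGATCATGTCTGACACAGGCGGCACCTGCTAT
Ighm-202 membrane: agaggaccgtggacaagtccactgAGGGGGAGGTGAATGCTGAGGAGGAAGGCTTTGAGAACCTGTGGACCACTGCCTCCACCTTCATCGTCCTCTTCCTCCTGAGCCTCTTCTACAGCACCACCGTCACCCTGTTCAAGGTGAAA
Igha-201 secreted: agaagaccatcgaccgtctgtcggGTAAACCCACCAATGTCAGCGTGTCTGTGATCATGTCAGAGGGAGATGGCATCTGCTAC
Igha-202 membrane: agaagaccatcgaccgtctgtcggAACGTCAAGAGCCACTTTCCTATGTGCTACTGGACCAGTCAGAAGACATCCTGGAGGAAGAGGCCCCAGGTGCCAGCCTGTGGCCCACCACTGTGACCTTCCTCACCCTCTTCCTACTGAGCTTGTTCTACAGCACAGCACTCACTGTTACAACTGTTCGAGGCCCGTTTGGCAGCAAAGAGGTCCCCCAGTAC
The secreted coding end of Ighm occupies chr12:113420870-113420928 and that of Igha chr12:113258771-113258829, 59 bases in each. The membrane coding ends are longer, with 122 bases in Ighm, in 2 exons within chr12:113418829-113419068, and 194 bases in Igha at chr12:113256204-113256397. The secreted ends encode the tailpiece through which IgM and IgA chains join the J chain, and the membrane ends encode the segment that crosses the membrane.

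Ighm used both ends. Its membrane transcript held 654 counts and 36.7% of the Ighm TPM in replicate 1, and 1459 counts and 45.0% in replicate 2 (40.9% ± 5.88, SD, n = 2). The secreted transcript held the remaining 63.3% and 55.0%, and was the larger in both libraries. The kallisto tables gave a membrane share of 34.3% in replicate 1 and 45.5% in replicate 2. Igha was nearly all secreted. Its membrane transcript held 4.70 and 9.03 counts, or 0.118% and 0.146% of the Igha TPM. All 4 IgG genes had 0 counts on the membrane transcript in both libraries by both quantifications. For Ighg2c the deposited posterior SD of that value is 5.99 counts in replicate 1 and 5.20 in replicate 2, so its split between the forms is not resolved. For the other 3 it is 0.82 to 1.09 counts, and a count of 0 allows up to 3 counts. Ighd went the other way, with the membrane transcript at 65.6% of its TPM in replicate 1 and 74.0% in replicate 2, on 14.8 and 24.5 counts. The kallisto tables gave 63.6% and 100% for Ighd, and with so few counts the exact share is not resolved.

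**Figure D2:**
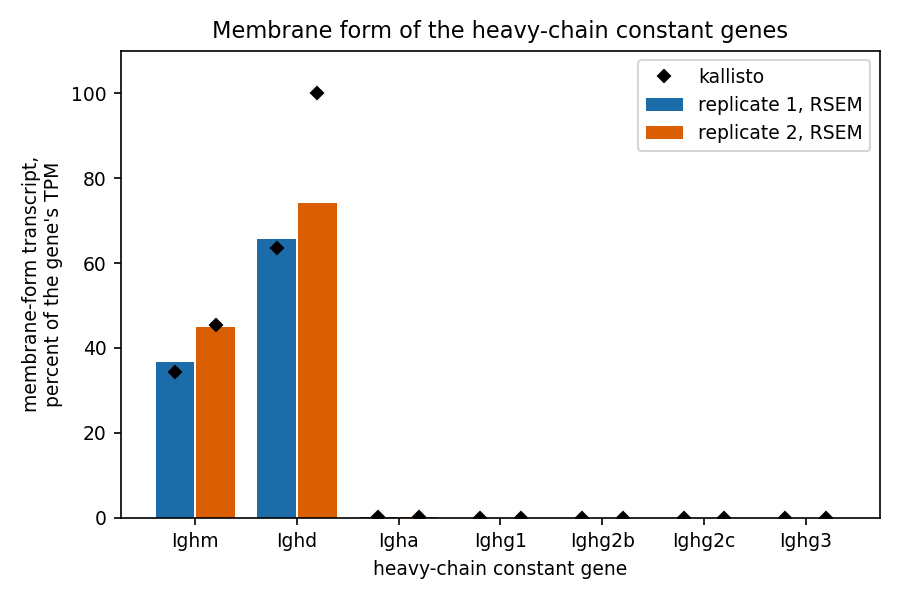
Membrane-form transcript of each heavy-chain constant gene as a percent of the gene's TPM. Bars give RSEM values for replicate 1 (left) and replicate 2 (right) and diamonds the kallisto values. Ighm stands at 36.7% and 45.0%, Ighd at 65.6% and 74.0%, Igha below 1% and the IgG genes at 0. Ighe had no counts and is not drawn.

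Light chains are of kappa or lambda type. Igkc, the single kappa constant gene (chr6:70726435-70726966), had 666 counts and 70.7 TPM in replicate 1 and 1458 counts and 182 TPM in replicate 2. Its log2 ratio was -1.11 (exact binomial test, adjusted p = 9.37e-64). The noncoding gene Gm30211 overlaps Igkc on the same strand and held 8 and 27 counts, so a small part of the reads could belong to either. Igkc led all constant genes by mean TPM, at rank 588 of 55536 genes. This lead came from replicate 2, and in replicate 1 Igha stood higher, with 76.0 TPM against 70.7 for Igkc.

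The lambda constant genes lie on chr16. Iglc1 had 86 counts and 11.1 TPM in replicate 1 and 457 counts and 69.5 TPM in replicate 2, which is 5.23-fold higher in replicate 2 after scaling. Its log2 ratio of -2.39 (exact binomial test, adjusted p = 2.17e-59) was the lowest of the constant genes. Iglc2 had 30 and 60 counts, or 3.40 and 8.06 TPM, with a ratio of -0.97. Iglc3 had 15 and 8 counts, or 1.95 and 1.22 TPM, and was the constant gene with a ratio above 0, at 0.88 (exact binomial test, adjusted p = 0.285). Iglc4 had 0 counts in both libraries. Iglc1 thus took 65.6% of lambda constant counts in replicate 1 (95% Clopper-Pearson interval 56.9% to 73.7%) and 87.0% in replicate 2.

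Kappa took 83.6% of light-chain constant counts in replicate 1 (Clopper-Pearson interval 80.8% to 86.1%) and 73.5% in replicate 2 (71.5% to 75.5%). The mean was 78.5% ± 7.10 (SD, n = 2), and the intervals, which cover counting error only, do not overlap. Light-chain over heavy-chain constant TPM was 0.627 in replicate 1 and 0.957 in replicate 2.

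Iglc2 and Iglc3 are close copies, with 96.2% identical coding columns, whereas Iglc1 shares 73.4% with Iglc2 and 74.2% with Iglc3. A stretch of 120 coding bases of both is shown because the counts of these genes rest on the few bases that differ, given in capitals (GENCODE M21, minus strand, chr16:19198733-19198852 for Iglc2 and chr16:19065562-19065681 for Iglc3).
Iglc2: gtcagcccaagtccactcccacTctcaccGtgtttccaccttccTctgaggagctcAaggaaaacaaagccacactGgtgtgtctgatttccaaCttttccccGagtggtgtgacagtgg
Iglc3: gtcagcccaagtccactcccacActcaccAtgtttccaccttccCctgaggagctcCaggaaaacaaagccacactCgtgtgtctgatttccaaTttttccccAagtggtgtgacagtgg
The stretch holds 7 differing bases. No run of 100 bases of any of the 13 constant genes occurs in another immunoglobulin gene or pseudogene, so reads of that length that match 1 constant gene exactly match no other gene of the family. This covers exact matches only. In replicate 2, Ighg2b held 201.58 counts and Ighg2c 102.42, each with a posterior SD of 1.35, so some reads were split between genes. The antisense gene 2010309G21Rik overlaps Iglc1 and Iglc3 and held 0 and 2 counts.

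The variable genes encode the antigen-binding domain. In all, 99 of 218 had at least 1 count in both libraries, 25 in replicate 1 alone, 37 in replicate 2 alone and 57 in neither. Detection in both libraries reached 45 of 113 heavy, 52 of 100 kappa and 2 of 3 lambda variable genes. All variable genes together held 779 counts in replicate 1 and 1171 in replicate 2, so most single genes rest on few counts.

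Heavy variable counts fell in 13 of the 16 families by symbol. The Ighv1 family, which holds 53 of the 113 genes, took 43.9% of heavy variable counts in replicate 1 and 52.6% in replicate 2, near its 46.9% share of genes. The Ighv14 family took 6.35% and 10.4% of counts with 3.54% of genes. The Ighv3 family took 11.7% and 4.24% of counts in replicates 1 and 2. The single genes of the families Ighv13, Ighv15 and Ighv16 had 0 counts. Kappa counts fell in 19 of 20 families. Igkv4, with 26 of the 100 genes, took 13.1% and 18.2% of kappa variable counts, and Igkv12, with 6 genes, took 15.8% and 9.36%. The lambda counts were on Iglv1, with 12 and 15, and Iglv2, with 8 and 9, while Iglv3 had 0.

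The leading variable genes were not the same in both libraries. In the heavy locus Ighv3-5 led replicate 1, with 27 counts in replicate 1 and 6 in replicate 2, and Ighv1-55 led replicate 2, with 11 and 51.1. By mean TPM the leader was Ighv14-2, with 2.37 TPM in replicate 1 and 8.07 in replicate 2, or 4.13% and 8.31% of heavy variable counts. The heavy leaders rest on the RSEM tables. In the kallisto tables Ighv4-1 led by mean, with 2.71 and 13.3 TPM, and Ighv14-2 had 2.22 and 7.21 TPM. There Ighv1-72 led replicate 1 with 27.6 counts and Ighv4-1 led replicate 2 with 51. Of the 10 leading heavy genes of each library, 3 were shared, namely Ighv1-19, Ighv1-55 and Ighv14-2. In the kappa locus Igkv20-101-2 led replicate 1, with 52 counts in replicate 1 and 34 in replicate 2, and Igkv9-124 led replicate 2, with 2 and 55.9. Igkv20-101-2 took 11.7% of kappa variable counts in replicate 1 (Clopper-Pearson interval 8.87% to 15.1%) and 4.90% in replicate 2. Of the 10 leading kappa genes, 2 were shared, Igkv10-96 and Igkv20-101-2. By mean TPM, Igkv10-96 had 4.72 TPM in replicate 1 and 6.50 TPM in replicate 2, and Igkv12-46 had 4.60 and 2.94 TPM. Neither differed past the threshold. The 10 leading genes of each library held 48.3% and 51.6% of heavy and 53.5% and 45.1% of kappa variable counts.

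The last 60 coding bases of these leaders, of Igkv3-12 (described below) and of Iglv1 are shown because this is where a variable gene is cut and joined. Capitals mark the last in-frame cysteine codon, the conserved cysteine that precedes the joined hypervariable loop (GENCODE M21, coding strand).
Ighv14-2 (chr12:113994469-113994528): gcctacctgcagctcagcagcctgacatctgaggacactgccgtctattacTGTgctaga
Ighv1-55 (chr12:115208095-115208154): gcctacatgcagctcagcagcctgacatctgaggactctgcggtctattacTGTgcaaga
Ighv3-5 (chr12:114262652-114262711): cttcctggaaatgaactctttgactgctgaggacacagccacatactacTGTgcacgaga
Igkv20-101-2 (chr6:68475042-68475101): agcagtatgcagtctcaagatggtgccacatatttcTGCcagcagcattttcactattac
Igkv9-124 (chr6:67942074-67942133): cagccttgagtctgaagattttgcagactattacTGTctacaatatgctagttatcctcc
Igkv3-12 (chr6:70518790-70518849): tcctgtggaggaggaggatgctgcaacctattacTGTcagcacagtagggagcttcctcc
Iglv1 (chr16:19085017-19085076): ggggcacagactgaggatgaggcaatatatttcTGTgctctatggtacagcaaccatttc
After the cysteine codon, 6 to 8 bases remain in the heavy genes shown and 21 to 24 in the light-chain genes.

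Along the loci, counts reached from the nearest to the most distant variable genes. Variable genes were split by rank of distance from the joining genes into 3 parts, near, middle and far. The near part of the heavy locus, 149 to 833 kb away, held 44.4% of heavy variable counts in replicate 1 and 36.3% in replicate 2, and the far part 26.3% and 31.6%. In the kappa locus the order was reversed, with 18.2% and 26.8% in the near part and 56.1% and 42.2% in the far part, 1887 to 3167 kb away. Kappa variable genes lie on both strands. The 62 genes on the minus strand held 51.6% of kappa variable counts in replicate 1 and 67.5% in replicate 2.

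**Figure D3:**
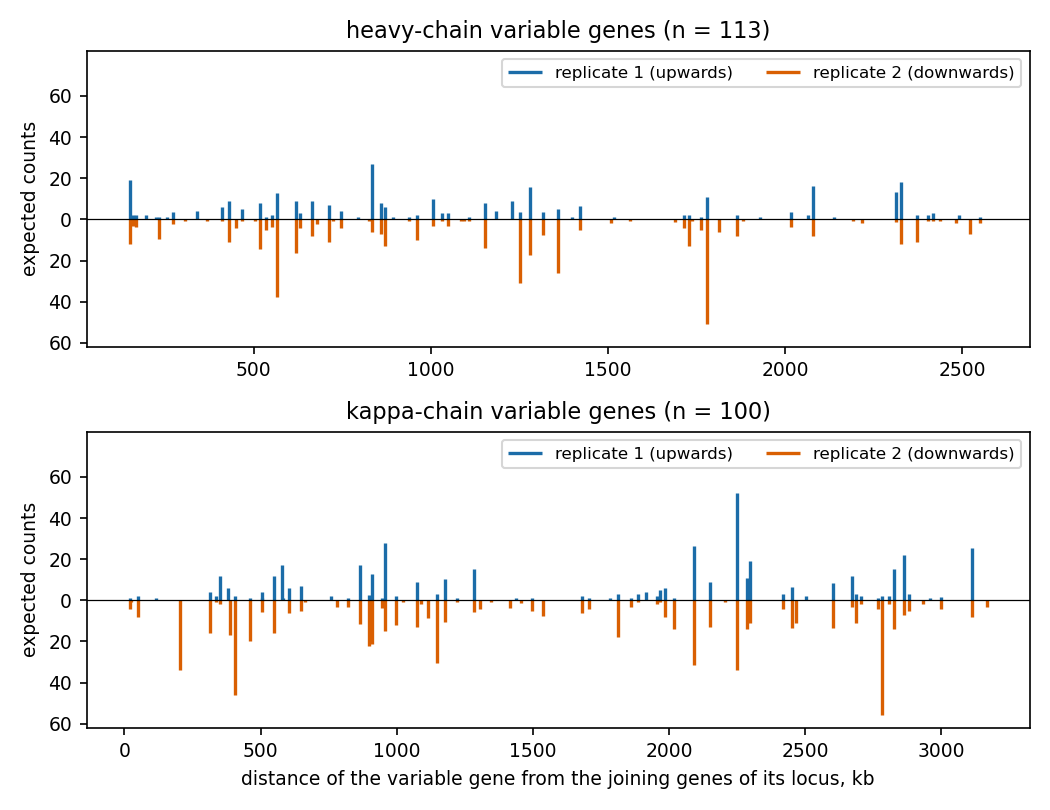
Expected counts of every heavy (n = 113) and kappa (n = 100) variable gene against the distance in kb from the joining genes of its locus. Replicate 1 is drawn upwards and replicate 2 downwards. The tallest lines differ between the libraries, with Igkv20-101-2 at 52 counts in replicate 1 and Igkv9-124 at 55.9 in replicate 2.

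Between the libraries, 66 of the 218 variable genes had the 10 counts needed for the test. Of these, 17 were higher in replicate 2 and 6 in replicate 1, against 17.0% and 15.0% of all genes tested. The median over the 66 was -0.50 on the log2 scale. With few counts per gene, only genes with large ratios could pass the threshold, so the size of the ratios below follows from the test. Igkv3-12 had 0 counts in replicate 1 and 34 in replicate 2, and 0 and 13.6 in the kallisto tables. With the 0 set to the floor of 3 counts and the 34 taken as exact, it was 11.2-fold higher in replicate 2. Igkv9-124 had a log2 ratio of -4.48 (exact binomial test, adjusted p = 2.30e-13). Igkv8-21 had 2 and 46 counts and a ratio of -4.20. In the heavy locus Ighv1-18 had 3.38 and 31 counts and Ighv1-26 had 5.15 and 26 counts. Ighv1-55 had a log2 ratio of -2.15 and Ighv14-2 one of -1.50. The other kappa genes with the lowest ratios had few counts in replicate 1. Igkv4-57 had 3 and 30.5 counts, Igkv5-43 had 2.67 and 22.4, and Igkv6-23 had 1 and 20. These 3 calls were lost in the kallisto tables, where the counts were 4 and 13 for Igkv4-57 (exact binomial test, adjusted p = 0.0775), 9 and 11.8 for Igkv5-43 (adjusted p = 0.692, exact) and 6 and 7.88 for Igkv6-23 (adjusted p = 0.759, exact). Igkv10-94 had 1.35 and 13.8 counts and Igkv14-111 had 0 and 11.

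The genes higher in replicate 1 were Igkv8-28, Ighv1-71, Igkv6-17, Ighv3-5, Igkv1-135 and Igkv17-127. Of these, Igkv6-17 (adjusted p = 0.448, exact) and Igkv1-135 (adjusted p = 1.00, exact) did not pass the threshold in the kallisto tables. Igkv8-28 had 17 counts in replicate 1 and 0 in replicate 2, and 10 and 0 in the kallisto tables. With the 0 set to the floor of 3 counts and the 17 taken as exact, it was 5.73-fold higher in replicate 1. Ighv3-5 had a log2 ratio of 2.10. Ighv1-71 had 13.3 and 1.34 counts by RSEM but 0 and 0.50 by kallisto, and 96.9% of its runs of 100 bases also occur in Ighv1-62-2, so its counts are uncertain. Igkv6-20, with 0 and 17 counts by RSEM, shares 55.8% of its runs with Igkv6-29 and had 5 and 16.9 counts by kallisto. Variable genes were thus called in both directions. By sign alone, 43 of the 66 variable genes tested had a ratio below 0 and 23 above it. Of the 11 constant genes, which hold more counts, 10 had a ratio below 0.

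Over all members, 77 of 268 were tested, of which 25 were called as higher in replicate 2 and 6 as higher in replicate 1, against 17.0% and 15.0% of all genes tested. Their median log2 ratio was -0.60. When the counts were scaled by the ERCC spike-in totals, the median of all genes shifted by -0.74. With that scaling 41 of the 77 members were higher in replicate 2 and 3 in replicate 1, against 73.8% and 1.24% of all genes, and the median of the members was -1.34.

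**Figure D4:**
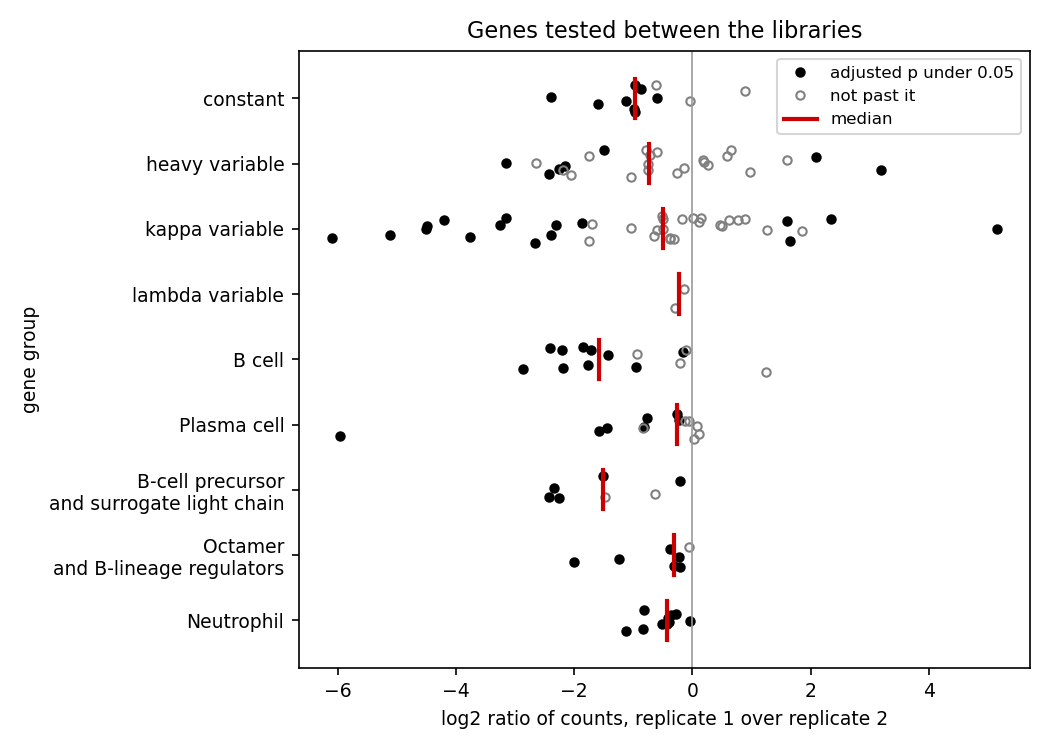
Log2 ratio of counts, replicate 1 over replicate 2, for each tested immunoglobulin gene and for genes of 5 companion lists. Filled points passed an adjusted p of 0.05 by the exact binomial test, open points did not, and red bars are medians. Constant genes lie left of 0 except Iglc3, variable genes lie on both sides, and the B cell list has a median of -1.57.

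Variable-gene TPM can be set against constant-gene TPM of the same locus. It was 39.4% of the constant level in replicate 1 and 33.7% in replicate 2 for the heavy locus, 110% and 77.9% for kappa, and 19.8% and 5.84% for lambda. The kallisto tables gave 59.8% and 52.5% for heavy, 117% and 79.0% for kappa, and 24.2% and 4.83% for lambda. The order of the loci was the same in both libraries and by both quantifications. An expressed chain carries 1 variable and 1 constant part, but rearranged and mutated variable parts and their CAST/EiJ alleles differ from the mm10 germline sequence. How many reads this cost was not tested.

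No joining or diversity gene received a count in either library by either quantification. All 33 are shorter than the 100 nt that the RSEM tables subtract from the length, with joining genes of 37 to 54 nt and diversity genes of 10 to 29 nt. Their effective length there is 0, so the zeros hold no information on their use. Sequences of 3 joining genes show how little there is to count. Capitals mark the codons for tryptophan or phenylalanine and glycine that every functional joining gene carries (GENCODE M21).
Ighj1 (chr12:113429781-113429833): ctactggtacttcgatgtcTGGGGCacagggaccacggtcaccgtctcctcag
Ighj4 (chr12:113428514-113428567): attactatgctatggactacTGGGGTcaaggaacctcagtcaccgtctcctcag
Igkj1 (chr6:70722562-70722599): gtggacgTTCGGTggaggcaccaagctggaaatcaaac
Among the 4 LV genes, Gm20730 had 3 and 2 counts by RSEM and 5.31 and 2 by kallisto, and the other 3 had 0 by both.

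The quantifications could be compared in 90 members. They were over 2-fold apart in the same direction in both libraries for 9, all of them variable genes, against 13.2% of the 13328 genes compared. Of the 9, 6 were higher by kallisto and 3 by RSEM. The widest gap was at Ighv9-1, with 8.78 and 8 counts by RSEM and 0 by kallisto in both libraries. Ighv4-1 went the other way, with 7.90 and 14.4 counts by RSEM and 14.4 and 51 by kallisto. No constant gene was apart. In all, 86 of 218 variable genes share at least 1 run of 100 bases with another immunoglobulin gene or pseudogene. Of the 9 genes apart, only Ighv8-8 and Ighv4-1 share any, 9.27% and 4.44% of their runs.

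Genes that act with immunoglobulins were also followed. Their calls are from the same library comparison, in which 17.0% of all genes were higher in replicate 2 and 15.0% in replicate 1. For the immunoglobulin values above, the part of these genes was not tested. In bulk RNA, fewer cells of a type and less RNA per cell cannot be told apart. Every one of the 15 B cell genes had counts in at least 1 library, and their summed level was 130 TPM in replicate 1 and 195 TPM in replicate 2, most of it Cd37, which other leukocytes also express. Of 14 tested, 10 were higher in replicate 2 and none in replicate 1, with a median log2 ratio of -1.57. Cd79a, a signalling chain of the B cell receptor, had 21 counts and 0.71 TPM in replicate 1 and 99 counts and 3.93 TPM in replicate 2. Its partner Cd79b had 30 and 141 counts, and Pax5, the factor that keeps B cell identity, had 85 and 295. Ms4a1, which encodes CD20, had 18 and 21 counts and did not pass the test. The Ighm level was 72.0 times that of Cd79a in replicate 1 and 27.8 times in replicate 2.

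The plasma cell list summed to 179 TPM in replicate 1 and to 242 TPM in replicate 2. Most of this was Xbp1, with 56.0 and 66.3 TPM, Edem1, with 50.9 and 65.4, and Ssr4, with 29.5 and 41.25. Sdc1 had 0.27 and 1.22 TPM, Prdm1 0.44 in both and Derl3 0.52 and 0.64. Of 13 tested genes, 7 were higher in replicate 2 and none in replicate 1, with a median of -0.26. Jchain, which links IgM and IgA into polymers, had 319 counts and 11.3 TPM in replicate 1 and 568 counts and 23.6 TPM in replicate 2. Its log2 ratio of -0.81 lay between those of Igha and Ighm. Igha was 6.72 times the Jchain level in replicate 1 and 5.80 times in replicate 2. Xbp1, a factor of the secretory programme that is not specific to plasma cells, had 1886 and 1972 counts and did not pass the test. Tnfrsf17, the plasma cell receptor BCMA, had 0 counts in both libraries.

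Among the B-cell precursor genes, 5 of 7 tested were higher in replicate 2 and none in replicate 1. The summed level was 16.6 TPM in replicate 1 and 30.8 TPM in replicate 2. Most of it was Cd93, 1 of the 5, with 14.5 TPM in replicate 1 and 19.9 TPM in replicate 2. Igll1 and Vpreb3 belong to the surrogate light chain and its relatives, and had 7 and 38 counts and 7 and 40 counts in replicates 1 and 2. Of the recombinase genes, Rag1 had 17 and 50 counts and Rag2 had 0 and 5. Among the class switching and hypermutation genes, 1 of 9 tested was higher in replicate 2 (Polh) and 1 in replicate 1 (Exo1). Of the 7 regulators of B-lineage and octamer-driven transcription, 6 were higher in replicate 2 and none in replicate 1, with a median log2 ratio of -0.32. Pou2af1, the octamer coactivator, had the lowest ratio of the list, -2.01, on 34 and 140 counts. Spi1, at 156 and 252 TPM, and Ikzf1, at 73.3 and 94.1 TPM, stood highest, with ratios of -0.32 and -0.21. Of the T cell list, 3 of 10 genes could be tested and 1, Cd3d, was higher in replicate 2. Its Trbc2 had 0 counts in both libraries and Trac 0 and 1, while Cd3d had 587 and 774.

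Of the 8 immunoglobulin receptors tested, 7 were higher in replicate 2 and none in replicate 1. Among the IgG receptors, Fcgr3 stood at 134 TPM in replicate 1 and 225 TPM in replicate 2, Fcgr2b at 26.1 and 42.3 TPM and Fcgr4 at 18.8 and 44.9 TPM, each above every IgG constant gene in both libraries. Fcgr1, the high-affinity receptor, stood at 0.20 and 0.84 TPM, below all 4 of them. Fcer1g, the signalling chain that Fcgr1, Fcgr3 and Fcgr4 share, stood at 381 and 522 TPM. Pigr, the epithelial receptor for polymeric immunoglobulin, and Fcamr, a receptor for IgA and IgM, had 0 counts in both libraries.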

How the data were processed

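Gene and transcript tables came from 2 total RNA-seq libraries of 1 group. Per the file headers, the deposited expected counts and TPM have the layout that RSEM writes, and were made from alignments to the mm10 transcriptome of GENCODE M21. The deposited estimated counts and TPM of the other transcript tables have the layout that kallisto writes, derived from the FASTQ file. They are called RSEM and kallisto for these layouts. The sources used here name no program or version. Effective length in the RSEM tables is length minus 100.

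Libraries were compared in genes with at least 10 rounded expected counts together (15118 genes) by an exact two-sided binomial test given TMM sizes (edgeR 4.0.16), with Benjamini-Hochberg adjustment at 0.05. For log2 ratios, replicate 1 was divided by replicate 2 after 0.5 was added to each count. The calculation was checked on data simulated with counting error only and with the same TMM sizes. That check cannot show how the test behaves where libraries differ by more than counting error. A count of 0 allows 3 counts. Clopper-Pearson intervals (95%), floors and the binomial p-values cover counting error only, because PCR copies cannot be told from independent molecules here. Quantifications were compared with 0.1 TPM added where mean TPM was at least 1 by either.

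The members and lists were chosen with earlier results of these data known. Named genes are all constant genes, the variable genes leading by mean TPM or by log2 ratio past the threshold, LV genes with counts, members furthest apart between quantifications, and genes of 8 companion lists. The leader of each single library, the family examples, Ighv1-19, Ighv1-26, Ighv1-72 and Ighv1-62-2, Igkv6-29, Gm30211 and 2010309G21Rik were named after their values were seen. Alternatives were other scalings (DESeq2 1.42.0 size factors, total counts, ERCC), other filters and minimums, the kallisto tables and leaving out a replicate. For log2 ratios of single genes, adding 2 to each count was a further alternative. Promoter sequences were not used here, and 1 gene of these lists is not reported here. Sequences were copied from GENCODE M21 transcripts.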

Additional observations from a re-analysis of the deposited data

How the results depend on the processing

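No paired analysis was possible because there is 1 group. The share of counts on immunoglobulin genes was 0.0567% as a share of TPM, against 0.0394% of counts, and lay between 0.0280% and 0.0509% without either replicate. The Igha share of heavy constant genes was 44.3% by counts, against 52.4% by TPM, and lay between 50.2% and 54.6% without either replicate. Leaving out a replicate also gave 73.5% to 83.6% for kappa, 4.13% to 8.31% for Ighv14-2, 4.90% to 11.7% for Igkv20-101-2 and 125 to 137 for the genes outside the constant class with counts. With 2 libraries, leaving out a replicate returns the value of the other, so all of these ranges repeat the single-library values and test nothing further. The kallisto tables gave 3.68% for Ighv14-2, against 6.22%. With a minimum of 5 counts, 39 genes outside the constant class had counts in both libraries, against 100 at 1 count. Adding 1 TPM left 1 member apart between quantifications, against 9, and no filter on TPM gave 17.

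Members that differed between the libraries numbered 31, and 26 to 44 under the 6 alternatives. The high end came from the ERCC scaling, with 28 of the 31 among its calls. The kallisto tables also called 31 members, but only 23 of them were among the 31 of the main setting. Of all genes, 889 passed with a 2-fold minimum and 11350 with the ERCC scaling, against 4850. No direction turned among the 27 immunoglobulin genes checked singly under 4 alternatives, where they could be tested. Only 26 of them could be tested in the kallisto tables. Ighv1-71 could not, with 0 and 0.50 counts there in replicates 1 and 2, against 13.3 and 1.34 by RSEM. Its direction was thus not checked by kallisto. The 4 alternatives were the DESeq2 size factors, the ERCC scaling, the kallisto tables and 2 added to each count. The added count does not enter the binomial test, so that alternative could change no call. The DESeq2 size factors shifted the median log2 ratio by only -0.0167. The check therefore rests on the ERCC scaling and the kallisto tables. The ERCC scaling brought Ighg3 and Ighd past the threshold and lost Igkv6-17, Igkv1-135 and Igkv17-127. Among the 26 genes checked singly there, the kallisto tables lost Igkv6-23, Igkv4-57, Igkv5-43, Igkv6-17 and Igkv1-135. The cause was not tested. The library comparison has no value with a replicate left out. Of 218 variable genes, 66 reached the 10 counts needed for the test.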
